A study of Rattus norvegicus with 20 samples.

Results

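The probes for cytosolic ribosomal proteins were all non-control probes whose gene name, in any case and without the ending _predicted, was Rpl, Rps or Rplp followed by a number, with an optional closing letter or digit. The rule used names only and no measured value. It found 71 of the 35737 gene names on the array, with 105 of its 41012 probes. Of these, 64 probes for 41 names belonged to the large subunit and 41 probes for 30 names to the small subunit. 25 names had more than 1 probe, up to 5, and 2 probes were printed 10 times, so that each array held 123 spots. Probes of 1 name share a target and are not separate genes.

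The arrays measured RNA of foetal testes from Han Wistar rats by 1-colour hybridisation with Cy3. Pregnant dams were dosed by gavage each day on gestation days 12 to 19. The groups were DEHP, MEHP, TOTM and EHO, each at 500 mg/kg, and Control, which received the corn oil vehicle alone, with 4 arrays a group. Each array carried the pooled testes of pups from a single litter, so the animal-to-animal spread within a litter was averaged out. The labels do not say that the pools of a group came from different litters, and p-values then measure only the spread between these samples. DEHP, di(2-ethylhexyl) phthalate, is a plasticiser, MEHP is its monoester and TOTM is a plasticiser built on trimellitate in place of phthalate. EHO is given as its label reads. The doses were equal by mass and therefore not by mole. All 4 arrays of a group lay on 1 slide of their own, so slide and treatment cannot be told apart in any comparison, and in pooled tissue fewer cells of a type and less RNA per cell cannot be told apart either.

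The cytosolic ribosome reads messenger RNA on its small subunit and joins amino acids on its large subunit, and each subunit is built from ribosomal RNA and a fixed set of proteins. The messenger RNAs of these proteins are among the most abundant in growing tissue, which puts their spots among the brightest on an array. They start with a run of pyrimidines, the 5′ terminal oligopyrimidine (TOP) sequence, through which mTOR sets their translation. The genes also have many processed pseudogenes in mammals, so a probe can meet more than 1 near-identical sequence, and values of single probes are uncertain to that extent.

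The start regions below are shown because a TOP start is what ribosomal protein messenger RNAs are known for, and the naming rule did not use it. They are RefSeq windows of assembly GRCr8, read 5′ to 3′ on the gene's strand from 5 bases before to 25 bases after the annotated start, in lower case, with every CTCTT or CTTTC in capitals. The windows are those of members described in the results, the last 2 of which hold neither run.
Rpl37: aCTTTCTCTTccggtCTCTTtggcctcgcc
Rps7: tgtgtCTCTTTCtaagccggcactccgtaa
Rpl35a: ccttcCTCTTTCcgccatcttggcgtcttt
Rps10: ccccttcCTTTCcagcctccgcctcggacc
Rpl10: agcgtCTCTTttcctctggcgcggtgagtg
Rps26: gggtcCTCTTTCgagtcttggctccaatat
Rps6: aggcggtcggctgtgtcaagatgaaggtag
Rpl3l: gcctggtggggaggtcccttcctaacctgc

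These windows lie in GRCr8 at chr2:55942940-55942969 on the plus strand for Rpl37, chr6:50999421-50999450 on the minus strand for Rps7, and chr11:81234997-81235026 on the minus strand for Rpl35a. The Rps10 window is chr20:5700720-5700749 on the minus strand, the Rpl10 window chrX:157205845-157205874 on the plus strand, and the Rps26 window chr7:1643380-1643409 on the minus strand. Those of Rps6 and Rpl3l are chr5:106420516-106420545 on the minus strand and chr10:14258441-14258470 on the plus strand. Of the 71 gene names, 58 had a window in the RefSeq table. CTCTT or CTTTC, which can overlap each other as CTCTTTC, stood on the gene's strand in 29 of these 58 windows (50%), against 1864 of the 27457 windows of all genes (6.79%). On the opposite strand the share was 1 of 58 (1.72%), against 7.12% of all windows. A match describes these letters only, and a window without one says nothing of how its messenger RNA is translated.

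Of the 105 probes, 103 were well above background on all 20 arrays, and no spot of theirs was saturated. Their readings on the Control arrays differed in quality from those on every other slide. The scanner software marks a spot as non-uniform when its pixels vary more than its error model allows. On the 16 arrays of the compounds 0 or 1 of the 123 ribosomal protein spots carried this mark, with a single marked spot in all, on the second TOTM array, whereas 82 to 84 did on each of the 4 Control arrays, which is 66.7% to 68.3%. Of the other 43256 spots of a Control array, 375 to 386 were marked (0.867% to 0.892%). Ribosomal protein spots thus made up 17.7% to 18.1% of all marked spots on these arrays.

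**Figure D1:**
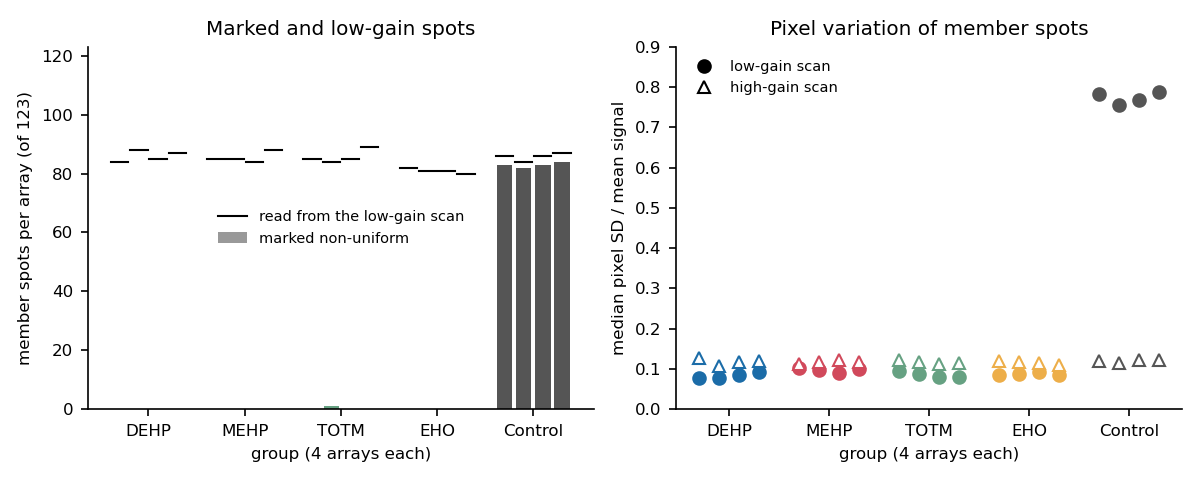
Ribosomal protein spots on each array, by group: on the left the number marked as non-uniform (bars) and the number read from the low-gain scan (lines), on the right the median pixel SD over mean signal (circles low-gain, triangles high-gain). Marks number 0 or 1 on the arrays of the compounds and 82 to 84 on Control arrays, whose low-gain circles lie at 0.755 to 0.787.

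The marks went with the low-gain scan. Every array was scanned at high and low gain, and the bright spots took their value from the low-gain scan. All 332 marked ribosomal protein readings on the Control arrays came from that scan. The low-gain scan supplied 80 to 89 ribosomal protein spots on the arrays of the compounds and 84 to 87 on Control arrays, so the number of such spots did not set the Control slide apart. On the Control arrays 96.5% to 97.6% of these low-gain spots were marked, and 96.4% to 97.2% of the low-gain spots of other probes. The SD of the pixels over their mean was 0.0783 to 0.101 in low-gain ribosomal protein spots on the arrays of the compounds, against 0.755 to 0.787 on Control arrays. For high-gain spots these ranges overlapped, at 0.106 to 0.128 on the arrays of the compounds and 0.114 to 0.121 on Control arrays. Above a signal of 50000, 174 of 185 ribosomal protein readings (94.1%) and 330 of 345 readings of other probes (95.7%) were marked on Control arrays. Between 5000 and 20000 the shares marked differed at equal readings. The reading of a marked spot is the marked value itself, so equal readings need not mean equally bright spots. From 5000 to 10000 the share was 36.4% of ribosomal protein readings and 0.943% of others. It was 41.3% and 14.4% from 10000 to 20000, and 94.9% and 91.3% from 20000 to 50000. The low-gain scan supplied 36.4% and 0.909% of the readings from 5000 to 10000 on Control arrays, and 0% of both kinds on the arrays of the compounds. Below 5000, 3 of 81 ribosomal protein readings and 20 of 166803 others were marked. The files also scale the low-gain scan, by a slope of 10.03 to 10.14 for the compounds, against 14.7 to 14.9 for Control.

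Some arrays were closer to each other than replicates usually were. The first 2 MEHP arrays differed by 0.777 of the spot noise and were counted as 1 sample. The second Control and the third MEHP array differed by 1.285 of it, and the third DEHP and the fourth MEHP array by 1.364, against a median of 2.28 for the 30 pairs of arrays within a group. Counts without these arrays are given with the alternatives.

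At the level of probes, 72 of 105 had a marked spot on all 4 Control arrays, 28 on none and 5 on 1 to 3 of them. The marked 72 were 42 of the 64 large-subunit probes and 30 of the 41 small-subunit probes. For 44 gene names every probe was marked on all Control arrays. The marked probes include both of Rpl13, a large-subunit protein, and that of Rpl11, which can bind Mdm2 together with Rpl5. They also include probes of the large-subunit proteins Rpl10, Rpl10a, Rpl15, Rpl17 and Rpl18. In all, 9 names had a probe of each kind, Rpl10, Rpl15 and Rpl18 among them, with 1 probe marked on all 4 Control arrays and another on none.

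Differences from Control were therefore taken with the marked spots set aside. Each value below is a level or a difference on the log2 scale, with the level given relative to the array's own 75th percentile of signal, and a probe was called where the Benjamini-Hochberg adjusted p of the limma fit over all probes was under 0.05. This left 33 ribosomal protein probes with a Control value, 22 of the large and 11 of the small subunit. Of these 33, 26 took their Control value from the high-gain scan and 7 from the few unmarked low-gain readings. The 71 other tested probes had no usable Control value and could be compared only between compounds.

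EHO was the only compound with ribosomal protein probes called against Control in this fit. Of the 33 probes, 11 were called, 8 higher and 3 lower in EHO testes, against 24.4% called among all 27773 probes, of which 6.69% were higher and 17.7% lower. The probes' median difference was 0.28, against -0.16 for all probes. All 11 small-subunit probes were above 0, with 5 called and a median of 0.47, and the 22 large-subunit probes had 3 called in each direction and a median of 0.10. The distance of the ribosomal protein median from that of all probes was 0.45 under the 75th percentile and under median scaling. These 2 scalings shift all probes of an array alike, so they could hardly differ in this distance. It was 0.16 after quantile normalization, 0.18 with normexp background correction before it, and 0.16 with the first 2 EHO arrays left out. After quantile normalization 5 probes were called higher and 7 lower, beside 2367 and 2664 of all probes. With normexp before it, 3 were called higher and 7 lower, beside 2124 and 2616. The mostly higher direction of the calls thus depended on the scaling.

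Rpl10, which joins the large subunit late in its maturation, stood at 6.27, 6.17, 5.92 and 6.06 on the EHO arrays, against 5.46, 5.56, 5.76 and 5.63 on the Control arrays. All EHO arrays were above all Control arrays for this unmarked probe, which lies at rn4 chrX:160336646-160336705. The difference was 0.50 ± 0.11 (SE, n = 4 each; limma adjusted p = 0.0104).

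Rps10, a small-subunit protein near the entry of the messenger RNA, had 2 probes and both were called. The first read 4.96, 4.78, 4.49 and 4.73 on the EHO arrays, against 4.23, 4.42, 4.32 and 4.12 on the Control arrays, with no overlap. Its difference was 0.47 ± 0.11 (SE, n = 4 each; limma adjusted p = 0.0188). The second probe differed by 0.40 ± 0.12 (limma adjusted p = 0.0364), with its lowest EHO array at 5.86 and its highest Control array at 5.91, so that the groups overlapped.

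Rps7, a small-subunit protein that can also bind Mdm2, read 5.02, 4.80, 4.43 and 4.75 on the EHO arrays, against 3.96, 4.46, 4.39 and 4.25 on the Control arrays. The third EHO array lay within the Control range. The difference was 0.49 ± 0.14 (SE, n = 4 each; limma adjusted p = 0.0329). Rpl35a, a large-subunit protein needed for ribosomal RNA processing, read 5.14, 5.21, 4.81 and 4.85 on the EHO arrays, against 4.45, 4.62, 4.77 and 4.57 on the Control arrays. The groups did not overlap, and the difference was 0.40 ± 0.12 (SE, n = 4 each; limma adjusted p = 0.0306). A second unmarked Rpl35a probe read 4.02, 3.83, 3.45 and 3.68 on the EHO arrays, against 3.40, 3.62, 3.45 and 3.30 on the Control arrays. These groups overlapped, and with a difference of 0.30 ± 0.12 the probe was not called (limma adjusted p = 0.061).

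Of the 3 lower probes, Rpl3l, a paralog of the large-subunit protein Rpl3 known from muscle, read -1.15, -0.06, -0.69 and 0.33 on the EHO arrays, against 0.46, 0.90, 0.29 and 0.23 on the Control arrays. The EHO arrays spread widely and 1 of them lay within the Control range. The difference was -0.87 ± 0.27 (SE, n = 4 each; limma adjusted p = 0.0377). Rplp1, an acidic protein of the stalk that recruits translation factors, read 9.87, 9.85, 9.44 and 9.61 on the EHO arrays, against 10.09, 10.61, 10.34 and 10.14 on the Control arrays. The groups did not overlap, and the difference was -0.60 ± 0.12 (SE, n = 4 each; limma adjusted p = 0.00884). Rpl13a, a large-subunit protein also known for silencing of selected messenger RNAs, was lower by a similar amount, with a difference of -0.42 ± 0.11 (limma adjusted p = 0.0267).

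For Rplp1 and Rpl13a the Control values came from the low-gain scan, and Rplp1, with 10 spots, kept a Control value only in its unmarked spots. The difference of Rplp1 was 0.047 with the marked spots kept, and that of Rpl13a was 0.12 with each array scaled on its median. Both probes were also below Control with the other compounds, by -0.58 and -0.54 for DEHP, -0.49 and -0.42 for MEHP and -0.67 and -0.62 for TOTM, where neither was called. These comparisons share the same Control arrays. When all low-gain readings were set aside on every array, 9 of 30 ribosomal protein probes were called against Control for EHO, 8 higher and 1 lower, beside 24.1% of all probes, 6.57% higher and 17.5% lower.

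**Figure D2:**
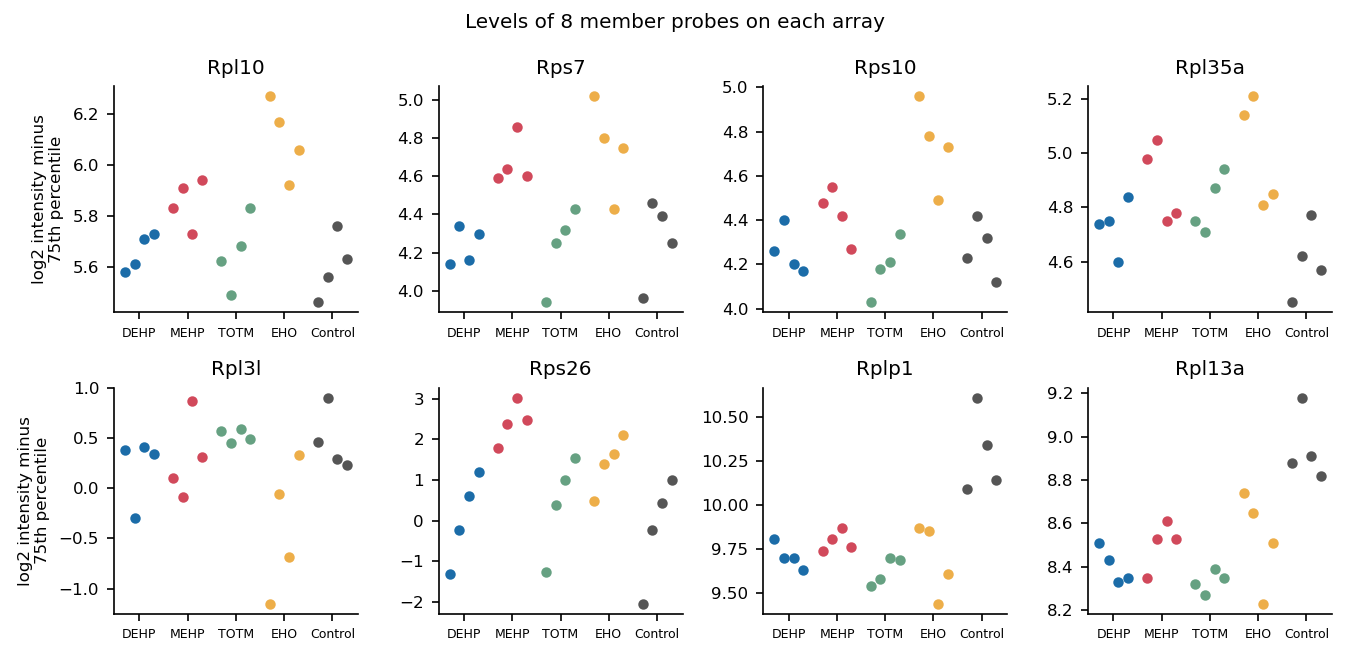
Log2 intensity of 8 ribosomal protein probes minus the array's 75th percentile, with marked spots set aside and 1 point per array, by group. EHO arrays lie above the Control arrays for Rpl10, and below them for Rplp1, whose Control values came from the low-gain scan.

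The EHO calls varied with single arrays. The count was 3 without the first Control array and 4 without the fourth Control array or without the first or the second EHO array. The shares of all probes in these fits are not given here, so the counts do not set the ribosomal protein probes apart. With the first 2 EHO arrays both left out, 3 of 33 probes were called, for Rpl37, Rplp1 and Rpl13a. The share of all probes called then fell from 24.4% to 0.888%, with 160 higher and 87 lower. In a fit of the EHO and Control arrays alone no ribosomal protein probe was called, and of all probes 2 were higher and 1 lower. The first 2 EHO arrays had 46.1% and 50.4% of spots well above background, against 62.5% and 63.5% on the other EHO arrays and 63.9% to 79.8% on all other arrays. The summed levels of 2 erythroid markers, Alas2 and Hbb, ran from 21.4 to 54.1 on EHO arrays and 16 to 23.3 on Control arrays, and those of 4 adrenal cortex markers from 0.605 to 1.19 and 1.27 to 1.87, with none of the 4 well above background on every array. All 4 fetal Leydig cell markers were well above background on every array, with sums of 82.3 to 103 (median 93.2) on EHO arrays and 100.2 to 149.8 (median 124.3) on Control arrays. The part of these differences in the ribosomal protein calls was not tested.

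No ribosomal protein probe was called against Control for DEHP, MEHP or TOTM by limma. The share called among all 27773 probes was 0% for DEHP, 0.9% for MEHP and 0.0072% for TOTM. At an unadjusted p under 0.05 there were 3, 5 and 6 of the 33 probes, and TOTM had 2 called when the first or the third EHO array was left out of the shared fit. Their median differences were 0.02 for DEHP, 0.11 for MEHP and -0.01 for TOTM, against -0.04, -0.05 and -0.04 for all probes. The smallest adjusted p-values were those of Rplp1 and Rpl13a for TOTM (limma adjusted p = 0.0659 for each). For DEHP, Rpl14 of the large subunit came next after these probes at -0.44 ± 0.12 (SE; limma adjusted p = 0.735).

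For MEHP, the largest difference belonged to Rps26, a small-subunit protein at the exit of the messenger RNA, whose probe lies at rn4 chr7:1919153-1919212. It read 1.79, 2.38, 3.02 and 2.47 on the MEHP arrays, against -2.04, -0.23, 0.43 and 0.99 on the Control arrays, in the order of the places on the slide. Every MEHP array was above every Control array, and the Control arrays themselves spread over a wide range. Counting the first 2 MEHP arrays as 1 sample, since they differed by less than the spot noise, the difference was 2.74 ± 0.73 (SE, n = 3 and 4; limma adjusted p = 0.129). With normexp background correction and quantile normalization it was 2.13 and called (limma adjusted p = 0.0427), and over all alternatives the adjusted p ran from 6.2e-05 to 0.883. The lowest values came from fits with the replicate number as a block and every array separate, where the difference was 2.63 ± 0.28 (SE). The DEHP arrays read -1.32, -0.22, 0.61 and 1.19, the TOTM arrays -1.27, 0.39, 1.0 and 1.53, and the EHO arrays 0.49, 1.39, 1.63 and 2.10. In all groups the array in the first place was the lowest. The main fit has no term for place, so the spread between places counts in its SE. MEHP minus Control at the same place was 3.83, 2.61, 2.59 and 1.48.

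**Figure D3:**
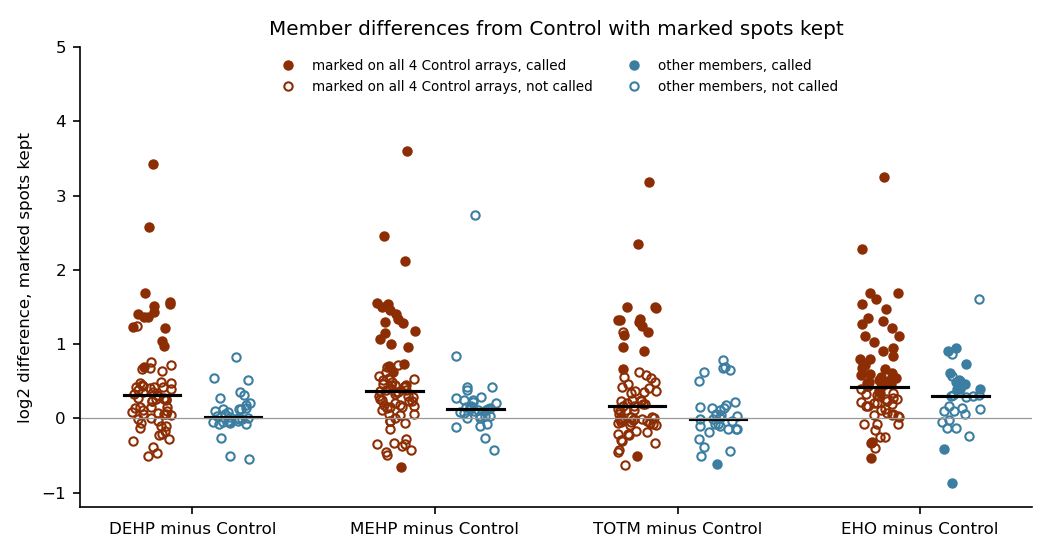
Log2 difference from Control of each ribosomal protein probe with the marked spots kept, by compound, split into probes marked on all 4 Control arrays and the rest; filled points were called and bars are medians. The medians of the marked probes are 0.31 (DEHP), 0.37 (MEHP), 0.17 (TOTM) and 0.43 (EHO).

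With the marked spots kept, the picture against Control changed. Of 104 probes tested, DEHP then had 15 called, all higher, beside 0.281% of all probes called and 0.256% higher. MEHP had 20 called, 19 higher and 1 lower, beside 1.26% of all probes, 1.2% higher and 0.0604% lower. TOTM had 17, 15 higher and 2 lower, beside 0.405%, 0.252% and 0.153%, and EHO 53, 49 higher and 4 lower, beside 25%, 7.29% and 17.7%. The EHO count was 30 without the first and 32 without the fourth Control array, and 33 without the first or the second EHO array. The shares of all probes in these last fits are not given here. These 4 comparisons share their Control arrays, so their calls are not 4 separate observations. The 72 probes marked on all Control arrays held 15, 20, 16 and 41 of these calls in that order of compounds, and the 32 other probes 0, 0, 1 and 12. The 291 marked probes of other genes had 53, 63, 51 and 132 called, with medians of 0.24, 0.27, 0.18 and 0.35. Taken from each probe's mean over the 16 arrays of the compounds, the deviations of the marked ribosomal protein probes had an SD over probes of 0.085 to 0.29 on an array of a compound and 0.64 to 0.73 on a Control array.

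Single probes show what these numbers rest on. One Rpl13 probe, at rn4 chr19:53440119-53440178, read 8.58, 8.45, 8.33 and 8.01 on the DEHP arrays, against 4.47, 5.52, 4.86 and 4.81 on the Control arrays. The groups were far apart, with a difference of 3.43 for DEHP. The other Rpl13 probe, also marked on all Control arrays, gave 0.42 for DEHP, and over all 4 compounds the 2 probes ran from 3.18 to 3.6 and from 0.33 to 0.67. Rpl13 is a large-subunit protein, and both probes carry its name.

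The same held for other names with several probes. Rpl5, which binds Mdm2 with Rpl11, had 3 probes, all marked on every Control array. The highest of them differed from Control by 2.57 in the DEHP, 2.46 in the MEHP, 2.35 in the TOTM and 2.28 in the EHO comparison, and the lowest by -0.0048, 0.051, -0.05 and 0.13. For Rpl30 of the large subunit the marked probe gave 1.23, 1.29, 1.13 and 1.11, and the unmarked probe 0.10, 0.03, 0.15 and 0.06. For Rpl18 the marked probe gave -0.50, -0.65, -0.51 and -0.53, and the other probe 0.13, 0.12, 0.14 and 0.28, so that probes of 1 name had opposite signs. Rpl30 is named here after its values were seen.

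The authors' deposited table lists the probes they took as altered against control, with a signed fold change. It lists 48 ribosomal protein probes among 1004 for DEHP, 39 among 3827 for MEHP, 60 among 3298 for TOTM, and 59 among 4210 under the heading EH. This is 45.7%, 37.1%, 57.1% and 56.2% of the 105 probes, against 2.45%, 9.33%, 8.04% and 10.3% of all probes on the array. Of the listed ribosomal protein probes, 91.7%, 87.2%, 86.7% and 72.9% were marked on all Control arrays, against 21.7%, 4.6%, 7.49% and 5.46% of all listed probes. The table gave 27 positive and 21 negative folds for DEHP, 23 and 16 for MEHP, 31 and 29 for TOTM and 35 and 24 for EH. For the probes not marked on all Control arrays, the sign in the authors' deposited table was that of the fit with marked spots kept in 33 of 33 listings. For the marked probes it was the same in 79 of 173 listings and the opposite in 94. The Rpl13 probe with the difference of 3.43 for DEHP has a fold of -1.26 in the authors' deposited table, and the gene-strand Rpl37 probe a fold of -1.25 against a difference of 1.52.

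Between compounds 1 non-uniform mark intervenes, on the Rpl28 spot of the second TOTM array. On the arrays of the compounds 18 ribosomal protein readings were population outliers and were set aside as well. The fit with marked spots kept restores both kinds. Of the 105 probes 104 could be tested, against 28133 probes in all. With marked spots kept, EHO against TOTM had 18 calls in place of 17, the added one being an Rpl31 probe at 0.34 (adjusted p = 0.0427, against 0.0532 with marked spots set aside), and the counts of the 5 other pairs of compounds were the same. No ribosomal protein probe was called by limma between DEHP, MEHP and TOTM. The largest difference was that of Rps26, at 2.46 in MEHP against DEHP and -2.11 in TOTM against MEHP. Every MEHP array was above every DEHP and TOTM array for this probe. MEHP against DEHP had 0 called (1.07% of all probes), TOTM against DEHP 0 (0%) and TOTM against MEHP 0 (1.48%), with 3, 1 and 16 probes at an unadjusted p under 0.05. The medians of the 104 probes were 0.04, -0.08 and -0.12, against -0.04, 0.02 and 0.05 for all probes. The 95% interval reached 0.27 to 0.29 to either side of the difference in the median probe over all 6 pairs. It lay within 0.5 on either side of 0 for 79 of 104 probes in MEHP against DEHP, 79 in TOTM against DEHP and 65 in TOTM against MEHP. These counts bound the differences and do not show that the compounds act alike.

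Calls were made in all 3 comparisons of EHO with another compound, most of them against TOTM. EHO against TOTM had 17 called (16.3%), 16 higher (15.4%) and 1 lower (0.962%), against 21.9% of all probes, 8.56% higher and 13.3% lower. Of the 41 small-subunit probes 14 were called, all higher (34.1%), with a median of 0.30, and of the 63 large-subunit probes 2 were called higher and 1 lower, with a median of 0.10. EHO against DEHP had 4 called, all higher, which at 3.85% is near the share of all probes (6.73% called, 3.81% higher), and EHO against MEHP had 1, higher (0.412% of all probes called, 0.124% higher). The medians were 0.18 against TOTM, 0.10 against DEHP and 0.06 against MEHP, beside -0.17, -0.17 and -0.15 for all probes. After quantile normalization they were -0.01, -0.04 and 0.01, beside -0.06, -0.06 and -0.03. The calls against TOTM were then 9 higher and 6 lower, beside 3035 and 2894 of all probes. With the first 2 EHO arrays left out the medians were 0.02, -0.07 and -0.10, beside -0.03, -0.01 and 0.03 for all probes. EHO against TOTM fell to 8 calls without the first EHO array or without the first or second TOTM array, to 9 without the second EHO array and 10 without the third TOTM array, and reached 34 without the third EHO array. EHO against DEHP had 1 call without the first DEHP array or the first or second EHO array, 2 without any other DEHP array, 11 without the fourth and 17 without the third EHO array. The call in EHO against MEHP was lost without the first or the second EHO array, without the third or the fourth MEHP array, and without most single arrays of other groups. The shares of all probes in the fits without 1 array are not given here, so these counts do not set the ribosomal protein probes apart. The summed levels of 2 peritubular and interstitial markers, Nr2f2 and Pdgfra, ran from 18.3 to 27 on EHO arrays, against 8.47 to 13.1 on TOTM arrays and 12.6 to 15.8 on DEHP arrays. Those of 3 endothelial markers ran from 16.8 to 29 on EHO arrays, against 10.2 to 15 on TOTM arrays and 12.7 to 15.5 on DEHP arrays. Cdh5 and Kdr were well above background on every array and Tek on none. Only Kdr was higher in EHO, with median log2 levels of 4.24 in EHO, 3.47 in TOTM and 3.75 in DEHP. In the same order the medians were -1.54, -1.41 and -1.54 for Cdh5 and -4.02, -3.81 and -3.85 for Tek. The adrenal cortex sums ran from 0.605 to 1.19 on EHO arrays and 1.42 to 2.32 on TOTM arrays. These sums did not overlap, and their part in the calls was not tested.

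**Figure D4:**
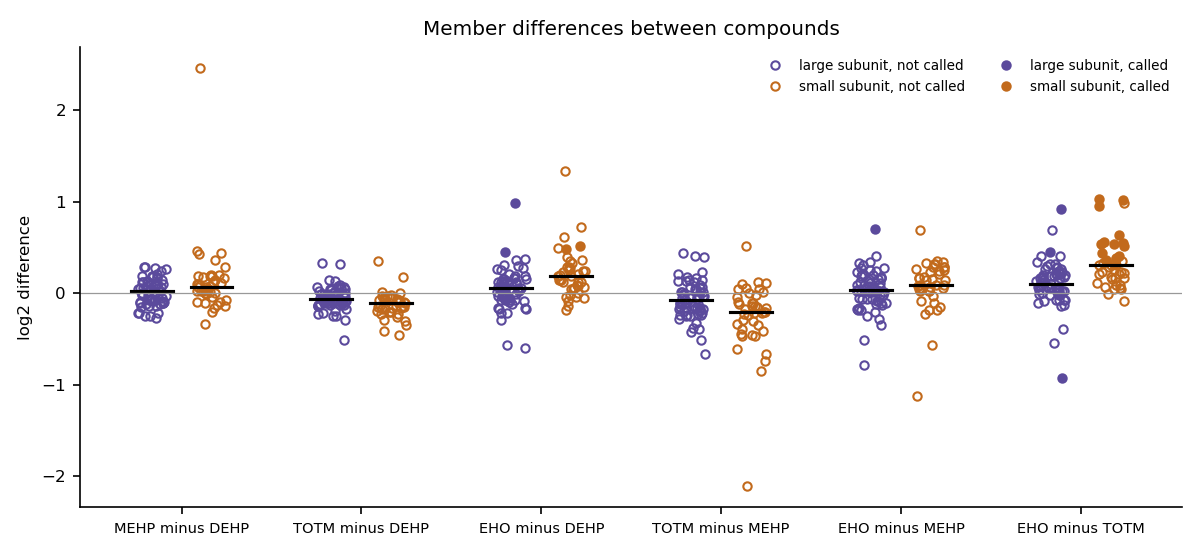
Log2 difference between compounds for each ribosomal protein probe, by pair, with large and small subunit apart; filled points were called and bars are medians. In EHO against TOTM the small-subunit probes have a median of 0.30 and the large-subunit probes of 0.10.

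Rps14, a protein of the small subunit's platform, read 9.35, 9.09, 8.71 and 8.85 on the EHO arrays, against 7.90, 8.01, 8.10 and 8.18 on the TOTM arrays. All EHO arrays were above all TOTM arrays. The difference was 0.95 ± 0.17 (SE, n = 4 each; limma adjusted p = 0.00311). The DEHP arrays read 8.84, 8.54, 8.42 and 8.22 and the MEHP arrays 8.78, 8.91, 9.0 and 8.52, between those of TOTM and EHO and overlapping the EHO arrays. The 4 Rps2 probes were also called in EHO against TOTM, with differences of 0.37 to 0.44. Rps2 is a small-subunit protein, named here after its values were seen.

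The Rpl10 and Rps7 probes called in EHO against Control and the first Rps10 probe were also higher in EHO against DEHP, by 0.45 (limma adjusted p = 0.0217), 0.52 (adjusted p = 0.0426) and 0.48 (adjusted p = 0.0224). The second Rps10 probe differed by 0.40 there and was not called (adjusted p = 0.0603). The second Rpl10 probe, which has no usable Control value, differed by 0.10 in EHO against DEHP (95% interval -0.14 to 0.33) and was not called. Rpl3l was the lower probe in EHO against TOTM, at -0.92 ± 0.27 (SE, n = 4 each; limma adjusted p = 0.0311). Its TOTM arrays read 0.57, 0.45, 0.59 and 0.49, and all 4 EHO arrays lay below them. With p-values adjusted over all 6 pairs of compounds at once, 0 probes were called in MEHP against DEHP and in TOTM against DEHP, 3 in EHO against DEHP, 1, lower, in TOTM against MEHP, 1 in EHO against MEHP and 8 in EHO against TOTM. The shares of all probes were then 1.29%, 0.224%, 4.2%, 1.87%, 1.8% and 7.32%.

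For Rpl37, Rps25 and Rps15 a probe built on an expressed sequence tag lies on the strand opposite to the gene's own probe, and these 3 probes stood out once the values had been seen. In rn4 the Rpl37 tag probe is at chr2:54304211-54304270 on the minus strand, where the gene-strand probe is at chr2:54303296-54303355 on the plus strand. The Rps25 pair shares chr8:47375104-47375163 on opposite strands. The Rps15 tag probe is at chr7:10927645-10927704 on the plus strand. A probe reads a signal from labelled nucleic acid of its own complement, so what these 3 measured need not be the messenger RNA of the gene whose name they carry.

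**Figure D5:**
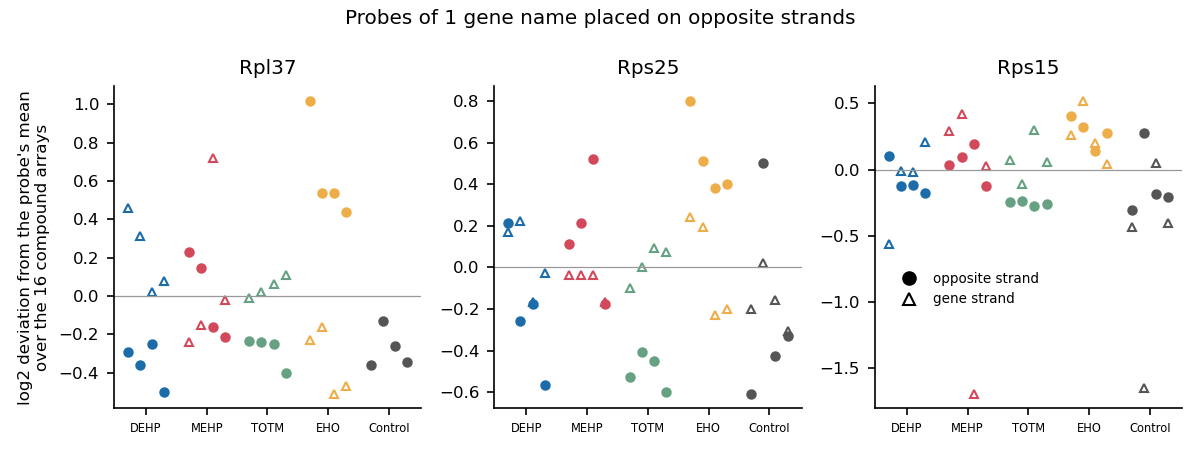
Log2 deviation of each probe from its own mean over the 16 arrays of the compounds, by array and group, for the 3 opposite-strand probes (circles) and their gene-strand partners (triangles). The circles of the EHO arrays lie above those of the TOTM arrays in all 3 panels, with a median difference of 0.92. These probes were picked after the values were seen.

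The Rpl37 tag probe read -0.02, -0.50, -0.50 and -0.60 on the EHO arrays, against -1.40, -1.17, -1.30 and -1.38 on the Control arrays. The groups did not overlap, and the difference was 0.91 ± 0.13 (SE, n = 4 each; limma adjusted p = 0.00116). It was the single ribosomal protein probe called in EHO against MEHP, at 0.70 ± 0.14 (limma adjusted p = 0.0392), and it was higher in EHO than in DEHP by 0.99 ± 0.13 (limma adjusted p = 0.000514). The gene-strand Rpl37 probe differed by -0.39 in EHO against TOTM, where the tag probe differed by 0.92.

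The Rps25 tag probe read 4.56, 4.27, 4.14 and 4.16 on the EHO arrays, against 3.15, 4.26, 3.33 and 3.43 on the Control arrays. The second Control array lay within the EHO range. The difference was 0.74 ± 0.22 (SE, n = 4 each; limma adjusted p = 0.0324). The Rps15 tag probe differed by 0.39 ± 0.12 (limma adjusted p = 0.0368), again with the second Control array, at 2.94, among the EHO arrays.

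In EHO against Control all 3 opposite-strand probes were called higher, with a median of 0.74, against 5 higher and 3 lower among 29 other ribosomal protein probes, with a median of 0.16. In EHO against TOTM all 3 were called higher, with a median of 0.92, against 10 higher and 1 lower of 97 others, with a median of 0.17. The 3 probes were singled out after these values were seen, so the counts and medians describe them and test nothing. The gene-strand partners in that comparison differed by -0.39 for Rpl37, -0.02 for Rps25 and 0.17 for Rps15. In the third MEHP array, as in the second Control array, the tag probes of Rps25 and Rps15 stood above those of the rest of its group.

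Where a probe's rn4 chromosome and the RefSeq chromosome of its name could be compared, 67 of the 105 probes were on the same one and 18 on another, and 20 were not compared. Among the 11 EHO calls, 6 were on the same chromosome, 4 on another, both Rps10 probes, Rps7 and Rpl35a, and 1 was not compared. This check was made after the values were seen. For these 4 probes the place given in the files is at odds with the gene, and signal from a near-identical copy cannot be told from that of the gene.

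Members with fixed roles outside plain ribosome structure could mostly be compared between compounds alone. Rps6, the target of the S6 kinases, was 0.23 higher in EHO than in TOTM (95% interval 0.02 to 0.45) and was not called. Rpl11 differed by -0.02 in MEHP against DEHP (95% interval -0.33 to 0.29). Rps27a, which is made as a fusion with ubiquitin, differed by 0.33 in EHO against TOTM (0.04 to 0.61), and Rpl22, whose protein also binds viral and cellular RNA, by 0.69 (0.08 to 1.31). The third TOTM array, at 2.91, lay far below the other TOTM arrays for Rpl22, at 4.54, 4.54 and 4.78, and without it the difference was 0.27. Rps19, the protein most often mutated in Diamond-Blackfan anaemia, differed by -0.09 in EHO against TOTM (-0.43 to 0.26), and Rplp2, the partner of Rplp1 in the stalk, by -0.01 (-0.27 to 0.25). Rps4x, whose gene is on the X chromosome, differed by 0.29 in EHO against MEHP (0.04 to 0.54). None of these was called over all probes. Without the third EHO array Rps6 (0.31, limma adjusted p = 0.0272) and Rps27a (0.39, adjusted p = 0.0458) were called in EHO against TOTM, and so was Rps27a without the fourth EHO array (0.42, adjusted p = 0.0231). Rplp0, Rpl10l, Rpl22l1, Rpl39l, Rps27l and Rpl7l1 have no probe under these names.

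Genes around the ribosome were taken from lists of other TOP messenger RNAs, ribosome biogenesis factors, mTOR components, p53 targets and mitochondrial ribosomal proteins. Each gene was represented by its brightest kept probe. No gene of any list was called by limma for DEHP, MEHP or TOTM against Control, where 1, 2 and 10 of the 112 tested had an unadjusted p under 0.05. For EHO against Control, where 6.69% of all probes were higher and 17.7% lower, 3 of 19 biogenesis factors were higher and 0 lower, with a median of 0.29, namely Nip7 (0.45 ± 0.15), the nucleolar chaperone Npm1 (0.43 ± 0.13) and Lsg1 (0.32 ± 0.11). Of 7 other TOP messenger RNAs 1 was higher, Nap1l1, a histone chaperone, at 0.59 ± 0.15. Of 13 mTOR genes 2 were higher, the kinase Akt1 (0.89 ± 0.29) and Eif4ebp2, an inhibitor of translation initiation (0.69 ± 0.17), and 0 of 10 p53 genes were called, with 1 at an unadjusted p under 0.05. The mitochondrial ribosomal proteins, which share the ribosomal role but not the TOP start, had 4 of 63 higher and 2 lower, with a median of 0.08. None of their 76 probes was marked on all Control arrays, while 10 of 29 probes of the other TOP messenger RNAs were. In EHO against TOTM, where 8.56% of all probes were higher and 13.3% lower, 2 of 20 biogenesis factors were higher and 4 lower, among them Ubtf, which drives ribosomal RNA transcription, at 0.78 ± 0.18 and Ftsj3, an RNA methyltransferase, at -0.54 ± 0.14.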

How the data were processed

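Testis RNA was read on 20 1-colour Agilent arrays in 5 groups of 4. Per the file headers, the deposited intensities are Feature Extraction's processed signals, which the authors' software corrected for background and joined from a high-gain and a low-gain scan. The submitters' processing notes give version 9.5. The authors' deposited table gives p-values and a score per listed probe, a signed fold change in which a decrease is written as a negative reciprocal, and its method is not given in the sources used here. Its 8 other value columns were not used. Probe coordinates are rn4, per the file headers.

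Readings marked non-uniform or as population outliers were dropped, replicate spots were averaged, and the log2 value was taken relative to the 75th percentile of its array. Probes entered when some group had them well above background on all its arrays, 28133 in number. The fit, with limma 3.58.1 (R 4.3.3), had a mean for each group and 19 samples, since the closest 2 MEHP arrays were averaged into 1. Benjamini-Hochberg adjustment ran over all probes of a comparison, with 0.05 as the limit. The script was tested on simulated data. Groups of 4 arrays limit the precision. Same-numbered arrays had the same place on their slides, but nothing in the labels ties arrays of different groups. Of 40 same-numbered pairs, 16 correlated above 0.1 (range -0.763 to 0.423), so numbers were not treated as pairs in the main fit.

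Named members were those with fixed roles, up to 6 called in each direction per compound against Control or else the 4 smallest p-values, up to 8 marked on all Control arrays, up to 3 called in each direction between compounds and per list, and names whose probes had opposite signs. Members, lists and rules were chosen with earlier results of these data known. The alternatives covered scaling, background correction, marked and low-gain readings, the samples in the fit and each array left out. Some members are counted but their values are not reported here, and they were left out of the strand comparison.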

Additional observations from a re-analysis of the deposited data

Results flagged for a closer look

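3 of 105 groups of 4 arrays tested held 1 array far from the other 3, by Dixon's criterion, which chance meets in about 1 of 20 groups. These were Rpl22 on the third TOTM array at 2.91, Rpl3l on the second DEHP array at -0.3 and the Rpl37 tag probe on the fourth TOTM array at -1.44, each a log2 level relative to the array's 75th percentile.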

How the results depend on the processing

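The calls were few and moved with the settings, and the cause was not tested unless fewer probes or samples entered. Calls against Control with marked spots kept are in the report (15, 20, 17 and 53). Quantile normalization gave 1 call of 33 for DEHP, 2 for MEHP and 2 for TOTM, beside 0.036%, 1.27% and 0.227% of all probes. It gave 9 of 104 in EHO against DEHP (9.74% of all probes) and 1 in TOTM against MEHP (2.37%). Normexp gave 2 of 33 for DEHP, 5 for MEHP and 3 for TOTM, beside 0.0756%, 1.43% and 0.371% of all probes. Of 104 it gave 1 in MEHP against DEHP (1.31% of all probes) and 12 in EHO against DEHP (8.68%). There were 3 in TOTM against MEHP (2.88%) and 6 in EHO against MEHP (2.41%). In EHO against Control the split of higher and lower calls was 16 and 0 under median scaling (6806 and 2753 of all probes). It was 5 and 7 under quantile normalization (2367 and 2664) and 3 and 7 with normexp (2124 and 2616), beside 8 and 3 in the main fit (1857 and 4915). Median scaling moved the median of all probes to 0.37 and that of the ribosomal protein probes to 0.82. Median scaling left 0 calls in EHO against MEHP (0.0178% of all probes). With 1 probe per gene there were 6 calls for EHO against Control, 1 against DEHP, 0 against MEHP and 7 against TOTM. Fits of the 2 groups alone gave 0, 1, 0 and 5 for these (0.0108%, 1.01%, 0% and 4.09% of all probes), and 1 in MEHP against DEHP (1.38%). Without the first 2 EHO arrays the 4 EHO counts were 3, 1, 0 and 2, beside 0.888%, 1.25%, 0.0959% and 4.05% of all probes. There were then 2 in TOTM against Control (0.151%) and 1 in TOTM against MEHP (2.7%). Without the third and the fourth MEHP arrays EHO against MEHP had 0. Without the second Control and the third MEHP array, whose pair differed by 1.285 of the spot noise, EHO against DEHP had 9 and EHO against MEHP 0. Setting aside all low-gain readings gave 9 of 29 in EHO against TOTM (22% of all probes). The fit with the replicate number as a block, every array separate, called 1 probe for MEHP against Control (Rps26, 2.63, adjusted p = 9.3e-05), 1 in MEHP against DEHP and 3 in TOTM against MEHP; every array separate without the block gave 1, with 2 for TOTM and 2 in TOTM against MEHP. With marked spots kept, median scaling gave 6 for DEHP, 12 for MEHP and 2 for TOTM, quantile normalization 24 for DEHP and 29 for TOTM, the fit of 2 groups 10 for EHO, leaving out MEHP 3 and 4 gave 13, and EHO 1 and 2 gave 17. Rplp1 changed sign with marked spots kept, at 0.063 for DEHP, 0.16 for MEHP and 0.047 for EHO, and under quantile normalization at 0.16 for DEHP and 0.069 for TOTM, and Rpl13a for EHO under median scaling at 0.12. Leaving out 1 array at a time gave 0 to 0 calls for DEHP and MEHP against Control, MEHP against DEHP and TOTM against DEHP, 0 to 2 for TOTM, 3 to 14 for EHO, 1 to 17 in EHO against DEHP, 0 to 1 in TOTM against MEHP, 0 to 2 in EHO against MEHP and 8 to 34 in EHO against TOTM. Median differences ranged from -0.04 to 0.08 for DEHP, 0.08 to 0.16 for MEHP, -0.05 to 0.04 for TOTM and 0.21 to 0.36 for EHO. With marked spots kept the counts ranged over 15 to 21, 15 to 26, 14 to 18 and 30 to 59. Where a count has no share beside it, the share of all probes is not given here.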
